A study of Mus musculus with 23 samples.

Results

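The 88 genes described here encode the nuclear subunits of the mitochondrial respiratory chain and of ATP synthase, with the factors that assemble complex I. They were taken by symbol, as all genes of the Nduf, Uqcr, Cox4 to Cox8 and Atp5 families and Sdha to Sdhd, leaving out Cox6a2, and they are 88 of 19938 genes measured. By complex they were 34 subunits of complex I, 7 complex I assembly factors (Ndufaf1 to Ndufaf7), 4 subunits of complex II, 8 of complex III, 16 genes of complex IV and 17 of ATP synthase. Ndufa4, a complex IV subunit once assigned to complex I, and its relative Ndufa4l2 were kept as a pair of their own. The label of subunits therefore holds for 81 genes at most, and the assembly factors are given apart wherever they decide a count. The 13 subunits encoded by mitochondrial DNA were not analysed here, nor were Cox7c and Ndufb4, whose probe sets carried several symbols.

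The respiratory chain passes electrons from NADH through complex I, or from succinate through complex II, to complex III and then to oxygen at complex IV. Complexes I, III and IV pump protons across the inner mitochondrial membrane, and ATP synthase lets them flow back through its membrane rotor to drive the catalytic F1 head. In macrophages the chain is known to do more than make ATP: after exposure to LPS, cells turn towards glycolysis, and complex II and reverse electron flow through complex I have been tied to inflammatory output.

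The cells were macrophages that had been differentiated from the bone marrow of wild-type C57Bl/6 mice. They were kept for 6 days in M-CSF, the macrophage growth factor (10 ng/mL), and exposed to the agents between 1 and 3 days after M-CSF was taken away. All 6 groups shared this strain and culture. The vehicle group (n = 3) received bovine serum albumin (BSA) at 125 µM for 5 h. The LPS group (n = 4) received 1 ng/mL of lipopolysaccharide, a bacterial agonist of TLR4, also for 5 h. No BSA is recorded for the LPS group, so it may differ from the other groups in BSA as well as in LPS. The design cannot tell these apart. Oleic acid (OA), with a double bond, and stearic acid (SA), saturated and of the same chain length, were bound to fatty acid-free BSA and used at 250 µM for 5 h or for 20 h, with 4 samples per acid and duration. The series text gives 4 h where the sample labels of vehicle and LPS give 5 h, and no vehicle of 20 h was among the groups. The samples are called replicate wells in the labels and biological replicates in the series design, so the error behind every p-value is the spread among these samples and may be technical.

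Single-channel arrays, 23 in all, were hybridised with material amplified from roughly 10 ng of RNA, and their number limits the precision. All 10 macrophage markers lay above the median of all genes, whereas 0 of 5 lymphocyte, 0 of 2 erythroid and 0 of 4 mast cell or basophil markers did. Of 6 stromal markers 2 did, and of 6 dendritic cell markers 1. Of 8 neutrophil markers 6 lay above it, with Ly6g and Elane below. The macrophage markers, summed on the log2 scale, came to 87.9 to 89.1 on the 20 h SA arrays, against 96.7 to 97.2 with OA at 20 h and 95.8 to 96.6 with vehicle. In bulk RNA, fewer cells of a type and less RNA per cell cannot be told apart. Replicate 2 of 20 h SA stood apart. On it the median deviation of the 88 genes from their group means was -0.20 on the log2 scale. On replicate 4 of LPS it was 0.125, the highest of its group, beside 0.118 on replicate 4 of 20 h SA. Over all genes the SD of these deviations was 0.215 on replicate 2 of 20 h SA. It was 0.165 on replicate 4 of LPS, within the 0.163 to 0.17 of the other LPS arrays.

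A motif that recurs in the promoters of these genes and the promoters of a pair of isoforms are shown first, because they belong to genes named below. Of the 88 genes, 73 had a promoter in the RefSeq table (mouse build GRCm38.p6, 250 bases before to 50 after the start). The motif GCGCATGCG, bound by NRF1, a known activator of respiratory genes, was searched on both strands, with a copy and its reverse complement CGCATGCGC often overlapping. A gene was counted once if any of its promoters held a match, so genes with more promoters had more chances. Counted so, the motif was in 10 of 73 genes (13.7%). The share was 2.86% of 15563 genes on the array with a promoter and 1.95% of all 27025 genes with a promoter. Of the 27 genes called in at least 1 comparison below that had a promoter, 4 held it, a share like that of the 73. Their windows are given 5′ to 3′ with the match in capitals:

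Atp5g2 (chr15:102671073-102671097, minus strand): ctccggccGCGCATGCGCagagcct
Atp5l (chr9:44920967-44920991, minus strand): accaataaCGCATGCGCatttcccc
Ndufaf4 (chr4:24897962-24897986, plus strand): agatgtctGCGCATGCGCctgtgcg
Uqcr11 (chr10:80406810-80406834, minus strand): cgccttcaCGCATGCGCtatacgtc

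Counted the same way, the ETS motif CCGGAAG was in 18 of 73 genes (24.7%, against 13.6% of genes on the array). YY1's CAAGATGGC was in 6 (8.22% against 1.77%) and CREB's TGACGTCA in 4 (5.48% against 2.72%). The GC box GGGCGG of SP1 was in 33 (45.2%), against 53% of genes on the array. Of the 27 called genes with a promoter, 6 held the ETS motif, 0 that of YY1, 1 that of CREB and 12 the GC box. Cox7a1 and Cox7a2 encode alternative isoforms of the same complex IV subunit, the first best known from heart and skeletal muscle and the second present in most tissues, and they behaved differently below. None of the 5 motifs was found in the Cox7a1 window, whereas the Cox7a2 window held 1 GC box, shown in capitals. A match is a description of letters and not evidence that a factor binds.

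Cox7a1 promoter (chr7:30183921-30184220, plus strand): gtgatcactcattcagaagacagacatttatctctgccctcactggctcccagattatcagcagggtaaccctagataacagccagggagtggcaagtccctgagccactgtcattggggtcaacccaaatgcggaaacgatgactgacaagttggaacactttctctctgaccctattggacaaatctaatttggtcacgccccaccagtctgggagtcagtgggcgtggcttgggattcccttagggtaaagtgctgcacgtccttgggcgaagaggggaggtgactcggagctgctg
Cox7a2 promoter (chr9:79759804-79760103, minus strand): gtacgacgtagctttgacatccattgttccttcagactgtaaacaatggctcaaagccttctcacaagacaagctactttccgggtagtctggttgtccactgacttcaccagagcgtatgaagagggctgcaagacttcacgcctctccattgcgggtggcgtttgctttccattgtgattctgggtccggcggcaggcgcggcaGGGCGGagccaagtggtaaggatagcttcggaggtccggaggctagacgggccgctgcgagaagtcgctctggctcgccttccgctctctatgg

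Most of the 88 genes were bright. Of them 82 had a mean above the median of all genes (4.25), and 68 were among the brightest 10% of genes. The 6 below it were tissue-restricted relatives of other subunits, namely Cox4i2, Cox6b2, Cox7b2, Cox8b, Cox8c and Ndufa4l2, with means from 1.87 to 3.81 that do not show them to lie above background. The median SD within groups was 0.122 on the log2 scale, and the median SE of a difference between groups was 0.10.

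**Figure D1:**
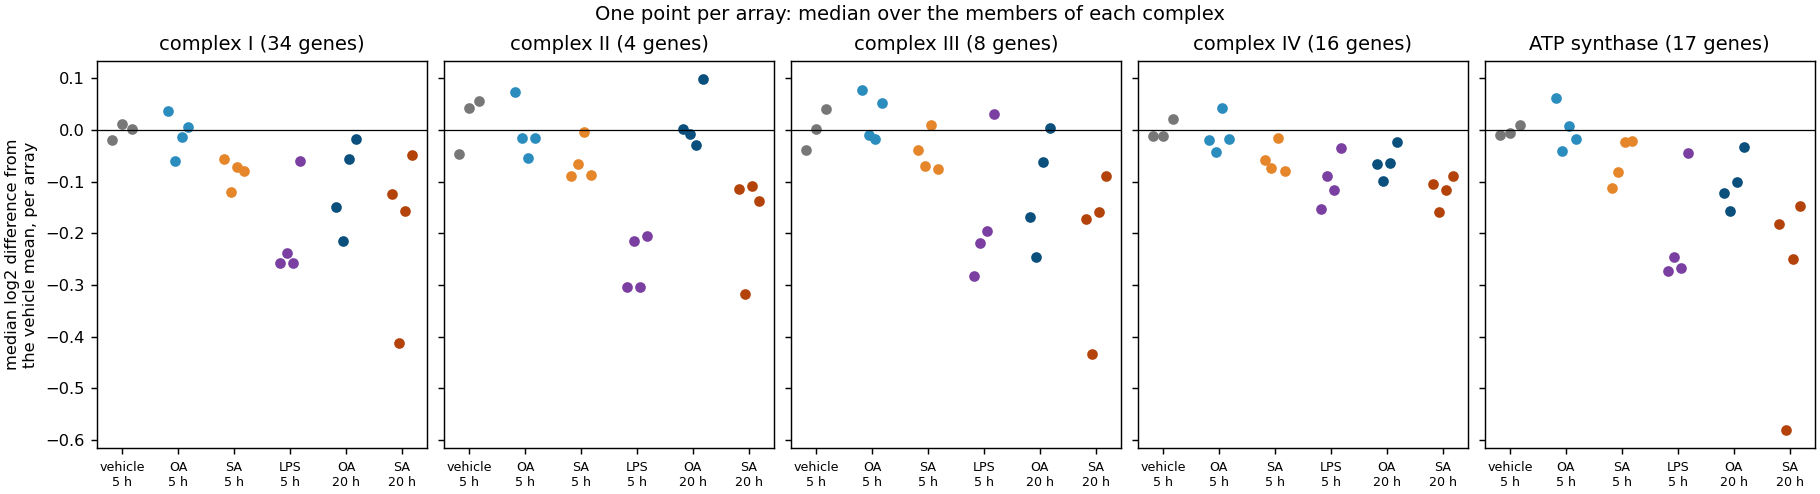
Median over the genes of each complex of the log2 difference from the vehicle mean, with 1 point per array, 5 panels and the 6 groups on the horizontal axis. Over all 88 genes the median lies between -0.04 and 0.04 on the 5 h OA arrays, between -0.26 and -0.05 on the LPS arrays and between -0.39 and -0.09 on the 20 h SA arrays, with replicate 4 of LPS highest and replicate 2 of 20 h SA lowest in its group.

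Taken array by array, the median over all 88 genes of the difference from the vehicle mean ran from -0.04 to 0.04 with OA at 5 h, which overlapped the vehicle arrays (-0.02 to 0.01). It ran from -0.10 to -0.05 with SA at 5 h, from -0.18 to -0.02 with OA at 20 h, from -0.26 to -0.05 with LPS and from -0.39 to -0.09 with SA at 20 h. Every array of 5 h SA, LPS and 20 h SA lay below the lowest vehicle array. The overlap of 20 h OA with vehicle rested on its replicate 4 (-0.016 against -0.017). The vehicle arrays were set against their own mean, which holds them near 0, so this order is a description and no test. Over all genes, the same median ran from -0.042 to -0.014 with LPS. It ran from -0.004 to 0.023 with 5 h SA and from 0.013 to 0.052 with 20 h SA. By complex, the LPS arrays ran from -0.26 to -0.06 for complex I, -0.30 to -0.20 for complex II, -0.28 to 0.03 for complex III, -0.15 to -0.03 for complex IV and -0.27 to -0.04 for ATP synthase. These differences between complexes were not tested.

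SA and OA, equal in length and different in saturation, were compared at each time. At 20 h, 11 of the 88 genes were lower with SA and 1 was higher at an adjusted p under 0.05 (limma, Benjamini-Hochberg over all 19938 genes). The lower genes came from every complex: 3 each of complex IV and ATP synthase, 2 each of complexes I and III, and 1 of complex II. Of all genes tested, 16.7% were called, 8.95% lower and 7.72% higher. The 11 falls were 12.5% of the 88 genes, not far above the 8.95%, and the 1 rise was 1.14% against 7.72%. The median difference was -0.12 for the 88 genes and 0.03 for all genes, and 71 of 88 had a negative sign.

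Cox7a1 fell most. Its log2 expression was 5.29, 4.88, 4.97 and 5.29 with SA at 20 h and 6.56, 6.19, 6.29 and 6.62 with OA at 20 h. It was 6.54, 6.36, 6.61 and 6.70 with SA at 5 h, 6.67, 6.17, 6.52 and 6.40 with OA at 5 h, 6.71, 6.57 and 6.65 with vehicle, and 6.26, 6.70, 6.78 and 6.81 with LPS. All 4 arrays of 20 h SA lay below every other array, and the other groups overlapped one another. The difference between the acids at 20 h was -1.31 ± 0.13 (SE; adjusted p = 4.8e-08), which is 2.47-fold, and at 5 h it was 0.11 ± 0.13 (adjusted p = 0.775). The change of the difference between the times, an interaction term in the same model, was -1.41 (adjusted p = 1.5e-05). Of the other genes of the set only Ndufaf4 passed that test, for which 4.98% of all genes were called, 1.58% higher and 3.40% lower.

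The relatives of Cox7a1 gave smaller values. Cox7a2 stood at 9.62, 9.67, 9.53 and 9.65 with SA at 20 h and at 9.77, 9.77, 9.77 and 9.74 with OA, a difference of -0.15 ± 0.10 (SE; adjusted p = 0.387; 95% interval -0.35 to 0.05). Cox7a2l stood at 9.62, 8.94, 9.53 and 9.45 with SA and at 9.69, 9.72, 9.77 and 9.78 with OA, and fell by 0.36 (adjusted p = 0.0251). Its groups did not overlap, but replicate 2 of SA was far below the rest, and without that array the difference was -0.21 (adjusted p = 0.123). A second probe set of Cox7a2l gave -0.13 (adjusted p = 0.302) over all arrays. Cox6b2, the testis isoform of a complex IV subunit, stood at 3.77, 3.63, 3.10 and 3.11 with SA and at 4.13, 3.89, 4.04 and 4.27 with OA, a fall of 0.68 (adjusted p = 0.00257) at levels not shown to lie above background. Cox6a2, the muscle isoform that was left out of the set, moved the opposite way to Cox7a1, with a mean of 7.27 with SA and 5.35 with OA at 20 h (1.93 ± 0.13, SE; adjusted p = 2.7e-11).

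**Figure D2:**
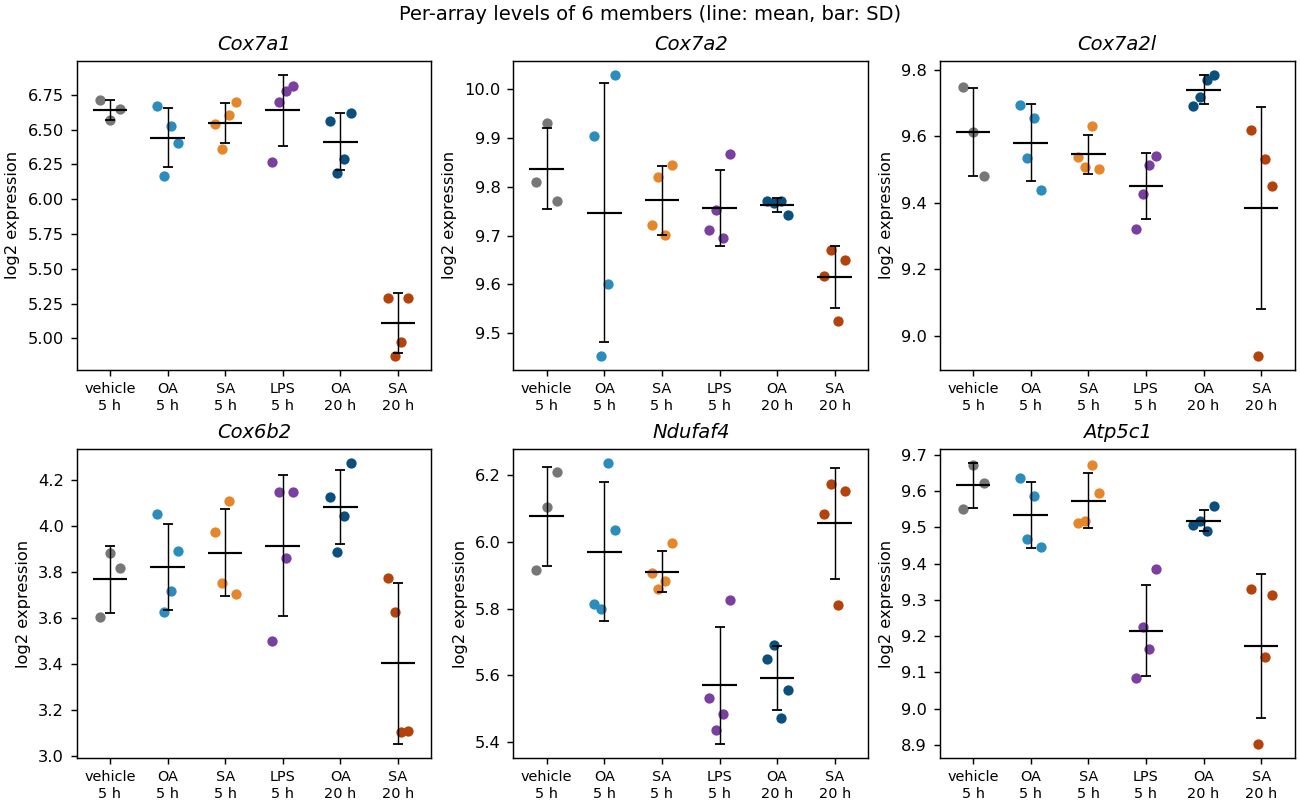
Log2 expression on each array of 6 genes, 1 point per array, in the 6 groups, with a line at the mean and a bar for the SD (n = 3 for vehicle and 4 for the others); the vertical axes differ. The 20 h SA arrays lie apart from all others for Cox7a1, at 4.88 to 5.29, replicate 2 of 20 h SA lies alone for Cox7a2l at 8.94, and Ndufaf4 is low with LPS and with OA at 20 h.

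The F1 part of ATP synthase, the head with its central stalk, held 3 of the 11 falls. Its 5 subunits had a median difference of -0.35 at 20 h with 3 called, whereas the other 12 genes of ATP synthase had a median of -0.16 with 0 called. Without replicate 2 of SA the medians were -0.26, with 3 called, and -0.07, with 0 called. This difference between the parts of the enzyme was not tested. Atp5a1, the alpha subunit, was 8.74, 8.59, 8.76 and 8.80 with SA and 9.14, 9.04, 9.11 and 9.18 with OA, a difference of -0.39 ± 0.07 (SE; adjusted p = 0.000247). Atp5c1, the gamma subunit that turns inside the head, was 9.33, 8.90, 9.14 and 9.31 with SA and 9.51, 9.52, 9.49 and 9.56 with OA (-0.35 ± 0.09, SE; adjusted p = 0.00739). The groups did not overlap for either, and both calls held without each array in turn. Atp5d, the delta subunit at the foot of the stalk, was 9.11, 8.37, 9.10 and 9.18 with SA and 9.35, 9.33, 9.54 and 9.46 with OA. Its difference of -0.48 (adjusted p = 0.00561) became -0.29 (adjusted p = 0.0107) without replicate 2 of SA. Atp5b, the catalytic beta subunit, gave -0.26 (adjusted p = 0.0775), and -0.13 (adjusted p = 0.349) without that array.

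Among the electron-carrying complexes the falls that were called were of accessory and anchoring subunits. Ndufa9, an accessory subunit near the quinone site of complex I, was 7.22, 6.90, 7.21 and 7.30 with SA and 7.63, 7.53, 7.43 and 7.63 with OA (-0.40 ± 0.09, SE; adjusted p = 0.00267). Sdhc, a membrane anchor of complex II, was 9.14, 8.89, 9.08 and 9.02 with SA and 9.30, 9.30, 9.28 and 9.39 with OA (-0.29 ± 0.07, SE; adjusted p = 0.00587). Neither pair of groups overlapped, and both calls held without each array in turn. The remaining falls, Ndufb5 in the membrane arm of complex I (-0.40; adjusted p = 0.0227) and the small complex III subunits Uqcr11 (-0.46; adjusted p = 0.0188) and Uqcrh (-0.33), lost their call without replicate 2 of SA, where they gave -0.24, -0.25 and -0.20. The 6 core subunits of complex I in the set, conserved from bacteria, had 0 calls and a median of -0.12, which was -0.06 without replicate 2 of SA. All 6 were lower. The 28 accessory subunits had 2 calls, 22 lower and a median of -0.09, which was -0.02 without that array. The core was thus not shown to be spared, and 6 genes are too few for 0 calls to be read. Ndufs1 was at -0.15 (adjusted p = 0.309) and Ndufv1 at -0.29 (adjusted p = 0.14), and without that array they gave -0.06 and -0.09.

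Ndufaf4, an assembly factor that acts early in building complex I, was the exception in direction. It was 6.08, 6.17, 5.81 and 6.15 with SA at 20 h and 5.65, 5.69, 5.47 and 5.56 with OA at 20 h, and the groups did not overlap. At 5 h it was 5.91, 5.86, 5.88 and 6.00 with SA, 5.81, 5.80, 6.24 and 6.04 with OA, and 5.92, 6.10 and 6.21 with vehicle. The SA level at 20 h thus lay within the range of the 5 h groups with vehicle or a fatty acid, and the OA level lay below it. The difference at 20 h was 0.46 ± 0.11 (SE; adjusted p = 0.00299), and it held without each array in turn. The change of the difference from 5 h to 20 h was 0.52 (adjusted p = 0.0478), but that call was lost in 13 of 16 fits that left out 1 array, with an adjusted p of up to 0.12. It held without replicate 1 or 2 of 5 h OA or replicate 3 of 20 h SA.

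Without replicate 2 of SA, the comparison at 20 h gave 7 falls and 1 rise, all 8 among the 12 above (Cox7a1, Cox6b2, Atp5a1, Atp5c1, Atp5d, Ndufa9, Sdhc and Ndufaf4), with a median of -0.04. In that fit 8.03% of all genes were lower, and the 7 falls were a like share of the 88. Leaving out replicate 3 or replicate 4 of OA at 20 h also gave 7 falls (8.22% and 7.97% of all genes lower), with the calls of Cox7a2l, Ndufb5 and Uqcr11 lost in both, and Ndufb5 was lost without replicate 1 of OA too. Fitted on the compared groups alone, Atp5d, Cox7a2l, Ndufb5 and Uqcr11 each lost their call. Of the 10 macrophage markers 8 were lower with SA at 20 h, with a median of -0.71, and 0 of 8 neutrophil markers were called; their part in these values was not tested.

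**Figure D3:**
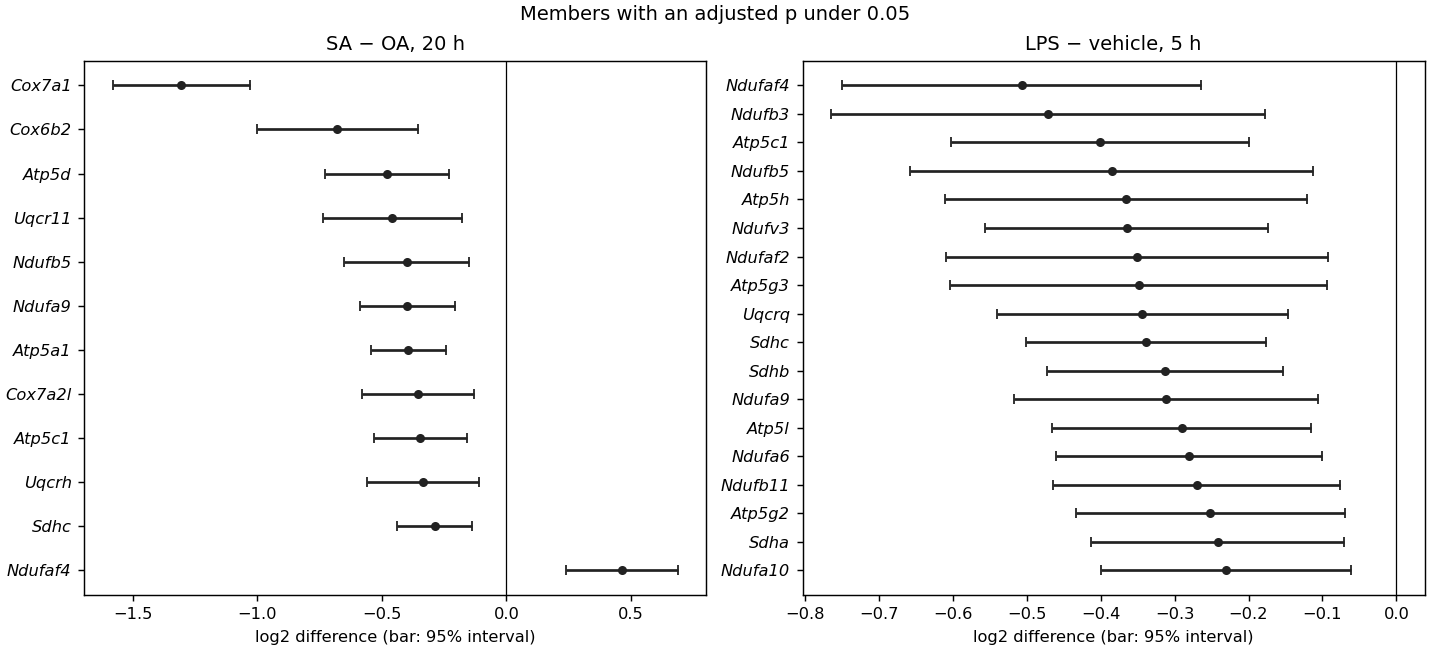
Log2 difference (point) with its 95% interval (bar) for each gene with an adjusted p under 0.05 in SA minus OA at 20 h (12 genes, left) and in LPS minus vehicle at 5 h (18 genes, right); the horizontal scales differ. Cox7a1 at -1.31 lies apart on the left, Ndufaf4 is the 1 gene above 0 there, and it has the most negative value for LPS, at -0.51.

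At 5 h the acids gave no call among these genes. SA against OA had 0 of 88 called, with 6 at an unadjusted p under 0.05, where 5.67% of all genes were called (3.30% higher, 2.37% lower). The differences ran from -0.42 to 0.16, and their 95% intervals reached from -0.73 to 0.43 at the widest, which includes differences as large as that of Atp5a1 at 20 h. Against vehicle, SA had 0 called, with 8 at an unadjusted p under 0.05 (3.33% of all genes called, 1.94% higher and 1.39% lower). OA had 0 called and 0 at an unadjusted p under 0.05 (0.0702% of all genes called, 0.0201% higher and 0.0502% lower). The complex I subunit Ndufb3 came closest with SA, at 6.24, 6.55, 5.89 and 6.29 against 6.68, 6.78 and 6.70 with vehicle, where the groups did not overlap (-0.48; adjusted p = 0.0723). The count of falls with SA against vehicle became 1 without replicate 2 of 5 h SA, and the median with OA against vehicle, -0.002, turned to 0.01 with arrays centred on their medians.

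Between 5 h and 20 h, 13 of the 88 genes fell with SA and 0 rose. Of all genes, 12.8% were called, 6.57% lower and 6.23% higher, and the 13 falls were 14.8% of the 88. This comparison shares the 20 h SA arrays with the one above, so its values are set beside those without further reading. Cox7a1 fell by 1.44, Uqcr11 by 0.54, Atp5a1 by 0.45, Ndufb5 by 0.44, Atp5c1 and Atp5d by 0.40 each and Ndufa9 by 0.33, beside differences from OA of -1.31, -0.46, -0.39, -0.40, -0.35, -0.48 and -0.40. Of the F1 subunits 4 of 5 were called, Atp5b (-0.32; adjusted p = 0.0268) with them. Atp5g3, 1 of 3 genes for the same mature subunit of the membrane rotor, fell by 0.39, from 10.06, 10.00, 9.92 and 9.84 to 9.66, 9.15, 9.71 and 9.75, and Ndufa4 fell by 0.27. Without replicate 2 of 20 h SA, Uqcr11 kept its call at -0.33, and Ndufb5, Atp5d, Atp5b and Atp5g3 gave -0.28, -0.21, -0.20 and -0.25. In that fit 6 of the 88 genes fell, a share near the 5.98% of all genes that were lower. Without replicate 2 of 5 h SA 7 fell, with 6.18% of all genes lower; the calls of Atp5b, Atp5d, Atp5g3, Ndufa1, Ndufa9, Ndufb5 and Ndufv3 were lost without replicate 2 of 20 h SA. Of the macrophage markers 7 fell and 1 rose over this time, and 4 of 8 neutrophil markers rose; their part was not tested.

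With OA, 2 of 88 genes fell between 5 h and 20 h and 0 rose, where 4.38% of all genes were called, 1.80% lower and 2.58% higher. Atp5g3 went from 10.06, 10.26, 10.32 and 10.22 to 9.67, 9.62, 9.70 and 9.97, a fall of 0.47 (adjusted p = 0.0135), and the groups did not overlap. Its relatives Atp5g1 and Atp5g2 gave -0.23 (adjusted p = 0.396) and -0.08 (adjusted p = 0.718). Ndufaf4 fell by 0.38 (adjusted p = 0.0452), a call lost in 6 of 8 fits that left out 1 array. The count went to 0 without replicate 3 of 5 h OA or replicate 2 of 20 h OA (1.52% and 1.42% of all genes lower), and to 1 without replicate 4 of 5 h OA or replicate 1 or 3 of 20 h OA.

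**Figure D4:**
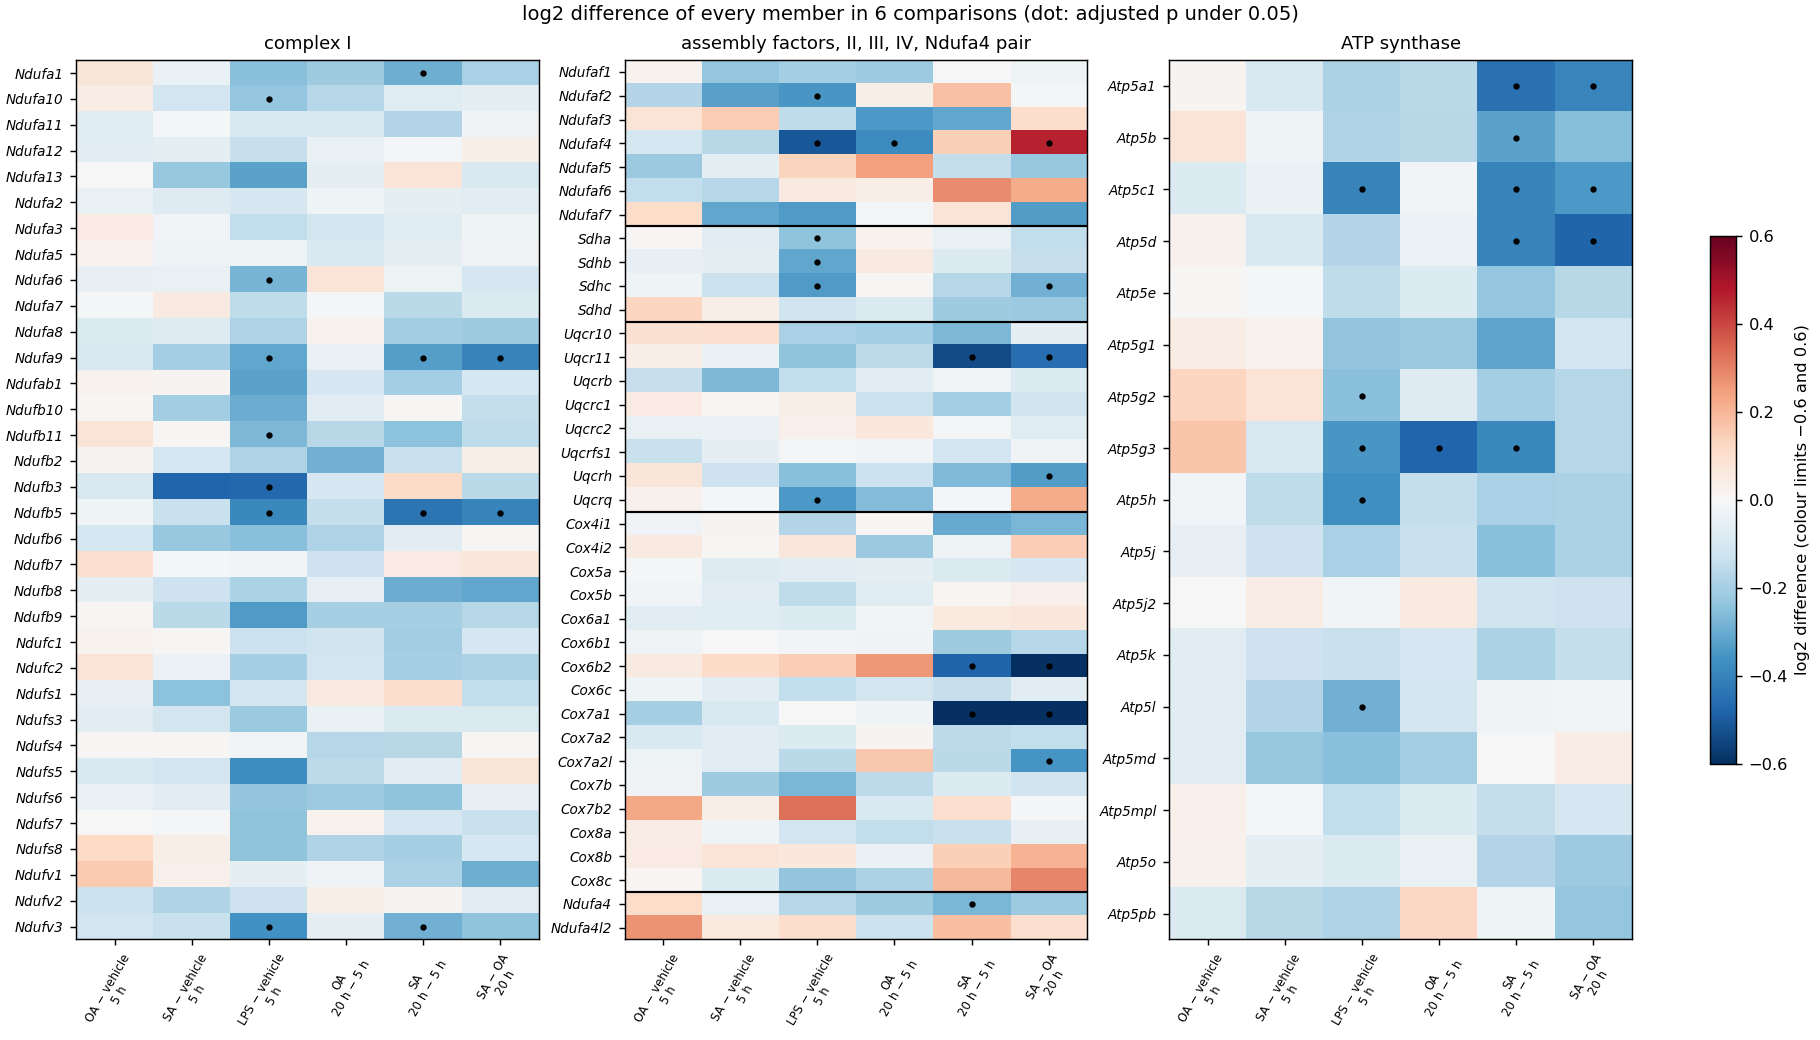
Log2 difference of all 88 genes in 6 comparisons (columns), by complex (blocks, parted by black lines in the middle panel), in blue where lower and red where higher, with colours ending at -0.6 and 0.6 and a dot at an adjusted p under 0.05. The LPS column is blue for 79 of 88 genes with 18 dots, the OA column at 5 h has 0 dots, and Ndufaf4 holds the 1 red cell with a dot.

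Genes called lower with LPS than with vehicle came from nearly every complex, and the groups may also differ in BSA. At 5 h, 18 of 88 were lower than with vehicle and 0 were higher, and 79 had a negative sign. Of all genes, 22.4% were called, 13.2% lower and 9.22% higher. The 18 falls were 20.5% of the 88 genes, and the median was -0.19 against -0.02 for all genes. The calls comprised 7 of 34 subunits of complex I, 2 of 7 assembly factors, 3 of 4 of complex II, 1 of 8 of complex III, 5 of 17 of ATP synthase and 0 of 16 of complex IV. For complex IV the choice of probe set mattered: other probe sets of Cox6c (-0.34; adjusted p = 0.0105) and Cox7a2l (-0.32; adjusted p = 0.00349) passed when each probe set was tested, while the brighter ones did not (-0.15 and -0.16). Cox7b was called without LPS replicate 4, and 5 of the 16 genes were among those not shown to lie above background.

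How many genes passed depended on how arrays were scaled. Centring each array on its median gave 6 falls and a median of -0.13, with 9.78% of all genes lower and 10.6% higher, whereas quantile normalisation gave 38 falls and a median of -0.24, with 13.9% lower and 9.34% higher. Leaving out replicate 4 of LPS, the highest array of that group, gave 27 falls, 17 of them among the 18, with 12.8% of all genes lower. Leaving out vehicle replicate 1, 2 or 3 gave 10, 7 or 8 falls, where 11.3%, 10.2% and 10.4% of all genes were lower. Leaving out LPS replicate 1, 2 or 3 gave 9, 9 or 10, where 11.6%, 11.9% and 11.9% were lower, so that in these 6 fits the share of falls among the 88 genes was close to or below that of all genes. No setting tried that kept all arrays made any of the 88 genes rise, and leaving out LPS replicate 3 gave 1 rise. Of the 10 macrophage markers 3 fell and 2 rose with LPS, with sums of 96.4 to 97.8, and of 8 neutrophil markers 2 rose and 0 fell. The stromal marker Pdgfrb (1.78) and the basophil marker Mcpt8 (0.44) also rose with LPS, 1 of 6 and 1 of 4 in their lists. The part of these markers in the values was not tested.

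Complex II carried 3 calls in 4 genes. Sdha, the flavoprotein that oxidises succinate, was 7.69, 7.85, 7.78 and 7.82 with LPS and 7.90, 8.10 and 8.08 with vehicle (-0.24 ± 0.08, SE; adjusted p = 0.0368). Sdhb, the iron-sulfur subunit, was 8.47, 8.48, 8.42 and 8.60 with LPS and 8.73, 8.81 and 8.87 with vehicle (-0.31 ± 0.08, SE; adjusted p = 0.00349). Sdhc was 9.06, 9.08, 8.97 and 8.87 with LPS and 9.31, 9.42 and 9.26 with vehicle (-0.34 ± 0.08, SE; adjusted p = 0.00213). The groups did not overlap for these 3 genes, and the calls of Sdhb and Sdhc held without each array in turn, while that of Sdha was lost without vehicle replicate 2 or 3 or LPS replicate 1 or 3 and with centred arrays. Sdhd, the other membrane anchor, gave -0.12 (adjusted p = 0.438; 95% interval -0.32 to 0.07).

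In complex I the falls that were called were among accessory subunits and assembly factors. Of the 28 accessory subunits 7 were called and 28 were lower, with a median of -0.23. Of the 6 core subunits 0 were called and 6 were lower, with a median of -0.17. With 13.2% of all genes lower, 6 genes are too few for 0 calls to be read. Ndufaf4 was 5.53, 5.44, 5.48 and 5.83 with LPS against 5.92, 6.10 and 6.21 with vehicle, without overlap (-0.51 ± 0.12, SE; adjusted p = 0.00201). Ndufv3, an accessory subunit of the NADH-binding module, was 8.61, 8.56, 8.50 and 8.78 against 8.99, 8.97 and 8.97, again without overlap (-0.36; adjusted p = 0.0046). Both calls held without each array in turn. Ndufb3 was 6.18, 6.29, 6.11 and 6.42 with LPS (-0.47; adjusted p = 0.0168), a call lost without vehicle replicate 2 or LPS replicate 3. Ndufb5 gave 8.30, 8.31, 8.37 and 8.79 against 8.77, 8.94 and 8.77, where replicate 4 of LPS overlapped the vehicle arrays (-0.39; adjusted p = 0.0361), and Ndufa9 gave -0.31 (adjusted p = 0.0246). The call of Ndufb5 was lost in 6 of 7 fits that left out 1 array, and that of Ndufa9 without vehicle replicate 2 or 3 or LPS replicate 2; centred arrays ended the calls of Ndufb3, Ndufb5 and Ndufa9.

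In ATP synthase the LPS calls spanned the F1 part, the stator and the membrane rotor. Atp5c1 was 9.09, 9.23, 9.16 and 9.38 with LPS and 9.55, 9.67 and 9.62 with vehicle (-0.40 ± 0.10, SE; adjusted p = 0.00321), which held without each array in turn. Atp5h, of the peripheral stalk, fell by 0.37, Atp5g3 by 0.35, Atp5l by 0.29 and Atp5g2 by 0.25. All 6 probe sets of Atp5l passed when tested on their own. Their means lay close together, from 10.91 to 11.02. They may read the same transcript, which was not tested, so they are not separate support. Atp5h, Atp5g2 and Atp5g3 each lost their call in 6 of 7 fits that left out 1 array, the exception being LPS replicate 4, and with centred arrays. In complex III, Uqcrq was 8.65, 8.94, 8.74 and 9.03 with LPS against 9.22, 9.21 and 9.13 (-0.34; adjusted p = 0.00912), without overlap, a call lost when the compared groups were fitted alone. Uqcrfs1, the Rieske protein that passes electrons on in complex III, gave -0.01, and Uqcrc1 gave 0.04.

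For complex IV the values with LPS were as follows. Cox4i1, the main isoform of the largest nuclear subunit, was 10.16, 10.14, 10.22 and 10.38 with LPS and 10.39, 10.39 and 10.43 with vehicle (-0.18; adjusted p = 0.376), and Cox4i2, its hypoxia-linked isoform, was at 3.71 to 4.13 and 3.70 to 3.89. The differences were -0.07 for Cox5a, -0.08 for Cox6a1, -0.11 for Cox8a and -0.005 for Cox7a1. Ndufa4 was 10.33, 10.34, 10.35 and 10.51 with LPS and 10.48, 10.59 and 10.59 with vehicle (-0.17; adjusted p = 0.157). Its paralogue Nmes1, under the symbol AA467197, is no member of the set and is known to take the place of Ndufa4 in complex IV in inflamed cells; it was 9.72, 9.61, 9.90 and 9.91 with LPS and 4.61, 4.66 and 4.35 with vehicle (5.24 ± 0.20, SE; adjusted p = 2.1e-16).

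SA and LPS at 5 h differed in 10 of the 88 genes, all higher with SA, where 22.1% of all genes were called, 13.0% higher and 9.11% lower. The comparison shares the LPS arrays with the one above. Atp5c1 was 9.51, 9.52, 9.67 and 9.59 with SA (0.36; adjusted p = 0.00422), Uqcrq 9.19, 9.13, 9.23 and 9.16 (0.34; adjusted p = 0.00583) and Sdhb 8.65, 8.78, 8.85 and 8.72 (0.26; adjusted p = 0.009), beside LPS arrays that all lay lower in each. The call of Sdhb was lost with centred arrays and with the compared groups fitted alone. The other 7 were Ndufab1, Ndufaf4, Atp5g2, Ndufb11, Ndufs8, Ndufa6 and Sdhc. The count was 3 with centred arrays, where 9.65% of all genes were higher and 10.7% lower. With quantile normalisation it was 30, where 13.8% were higher and 9.75% lower. Without LPS replicate 4 it was 13, with 12.4% of all genes higher. The count was 4 to 6 without any 1 of LPS replicates 1 to 3 or SA replicates 1 to 3. In those fits 11% to 12.5% of all genes were higher.

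Other genes of mitochondrial respiration, in lists chosen by function, gave mixed directions. Their counts stand beside all genes, of which 13.2% fell and 9.22% rose with LPS, and 8.95% fell and 7.72% rose with SA against OA at 20 h; most of these lists are too short for their shares to be read. Of 14 electron and nucleotide carriers, 4 fell and 2 rose with LPS, among them Gpd2, the glycerol-3-phosphate dehydrogenase that feeds electrons into the chain without complex I or II (2.20 ± 0.12, SE; adjusted p = 3.7e-13), and the ADP/ATP carrier Slc25a5 (-0.39). With SA against OA at 20 h 5 fell and 0 rose, including Etfb (-0.66), the phosphate carrier Slc25a3 (-0.27) and the ADP/ATP carrier Slc25a4 (-0.31). Of 18 genes of the tricarboxylic acid cycle and pyruvate dehydrogenase, 3 fell and 0 rose in both comparisons. The largest was Suclg2, a subunit of GTP-forming succinyl-CoA synthetase, at 4.63, 4.75, 5.20 and 5.07 with SA and 5.66, 5.82, 5.90 and 5.90 with OA at 20 h (-0.91 ± 0.12, SE; adjusted p = 3.0e-06), and Idh3b fell in both (-0.44 with LPS and -0.30 with SA).

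Assembly and expression factors followed no single direction. Of 8 further assembly factors of complex I, 3 fell and 0 rose with LPS, led by Tmem126b (-0.96 ± 0.13, SE; adjusted p = 3.4e-06), and 2 fell with SA against OA at 20 h (Dmac1, -0.53, and Tmem126b, -0.46). Of 19 complex IV assembly factors, 3 rose and 4 fell with LPS, with Cox18 (0.83) and Coa5 (0.52) the largest rises and Cmc2 (-0.47) the largest fall, and 2 rose and 1 fell with SA, with Cmc2 (-0.65) again lower. Of 5 ATP synthase assembly factors, Fmc1 rose with SA at 20 h (0.67; adjusted p = 0.00085) and Tmem242 fell (-0.34), and Tmem242 fell with LPS (-0.56). Of 77 mitochondrial ribosomal proteins, 15 fell (19.5%) and 4 rose (5.19%) with LPS, and 6 fell and 6 rose with SA (7.79% each), which is near the share of all genes. Of 15 transcription regulators, Ppargc1b, a coactivator of respiratory genes, fell with LPS (-0.56; adjusted p = 0.00053) and rose with SA against OA at 20 h (0.37; adjusted p = 0.0164); Gabpb1, an ETS partner subunit, rose with LPS (0.76).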

How the data were processed

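Total RNA was measured in 23 single-channel samples. The values are log2 expression per probe set as the authors deposited them, made with RMA per the submitters' processing notes, which also name limma; versions and the role of limma are not given in the sources used here. RMA corrects background, gives arrays a common distribution and summarises probes, so a shift of all genes is removed before deposit. Of 35556 probe sets, 21789 carried 1 gene symbol, 1621 several and 12146 were not in the probe table. For 999 genes the probe set of highest mean was kept, which gave 19938 genes. A probe set may also read processed pseudogenes of its gene, which could not be tested here. All 88 symbols matched the reference through the Entrez identifier.

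A mean per group was fitted with limma 3.58.1 in R 4.3.3 (empirical Bayes, two-sided p, Benjamini-Hochberg over 19938 genes per comparison), with 9 comparisons and a call at an adjusted p under 0.05. The fit was tested on simulated data. Intervals are 95% intervals of the fit. Named were up to 6 largest rises and falls called per comparison, fixed anchor genes, and up to 3 called genes from each other list; a few further called genes were named to complete a count after their values were seen. The members and lists were chosen with earlier results of these data known. Alternatives were moderation with trend, array centring, quantile normalisation, array weights, leaving out the dimmest 25% of genes, the mean of probe sets, the compared groups alone, a replicate block, each array left out and, added after seeing the data, every probe set alone. Levels were not compared between genes. Plots used matplotlib 3.10.9 under Python 3.11.15.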

Additional observations from a re-analysis of the deposited data

Results flagged for a closer look

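Dixon's test at 95% was run in each group but vehicle, for 23 called genes that were named and for the median over all 88 genes. Vehicle, with 3 arrays, was not tested. Of 120 such tests, 10 found an array far from its group, where chance gives about 1 in 20. All 10 were values of single genes and lay on the same pair of arrays. On replicate 2 of 20 h SA, Atp5b stood at 8.92 (others 9.39 to 9.48), Atp5d at 8.37 (9.10 to 9.18), Atp5g2 at 9.90 (10.22 to 10.26), Atp5g3 at 9.15 (9.66 to 9.75), Ndufb5 at 7.79 (8.36 to 8.47) and Uqcr11 at 8.42 (9.24 to 9.30), so that 6 values were low. On replicate 4 of LPS, 4 values were high: Atp5d at 9.39 (9.21 to 9.22), Atp5h at 9.61 (9.24 to 9.30), Ndufa4 at 10.51 (10.33 to 10.35) and Ndufb5 at 8.79 (8.30 to 8.37).

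The difference between SA and OA itself changed from 5 h to 20 h, by the interaction term of the limma fit, for Cox7a1 (-1.41 on the log2 scale; adjusted p = 1.5e-05) and Ndufaf4 (0.52; adjusted p = 0.0478). The call of Ndufaf4 was lost in 13 of 16 fits that left out 1 array, and with centred arrays, the compared groups alone or the replicate block, whereas that of Cox7a1 held in all of these. Outside the set, it changed for the ATP synthase assembly factor Fmc1 (1.04), the succinyl-CoA synthetase subunit Suclg2 (-0.81), the complex IV factor Cmc2 (-0.73), the mitochondrial DNA polymerase Polg (0.59), Gpd2 (-0.55) and the ribosomal protein Mrpl24 (0.48), with adjusted p from 0.000995 for Fmc1 to 0.0445 for Cmc2.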

How the results depend on the processing

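Of 49 calls of named genes, 0 reversed; 621 alternative values kept the call and 165 lost it. The share of all genes called in the same fit was worked out only for centring, quantile normalisation and fits without 1 array. For the other fits it was not, so their counts cannot be read as a result about these genes. Counts of called members moved as follows. For SA against OA at 20 h, falls were 20 with trend and robust moderation, 6 with the compared groups alone and 7 to 15 without 1 array; rises were 2 with trend, quantile normalisation or array weights and 0 for subunits only. For the interaction, rises were 0 with centring, the groups alone, subunits only or the replicate block, and 0 to 1 without 1 array; falls were 4 with trend, 2 with weights, 2 without the dimmest 25% and 1 to 2 without 1 array. At 5 h, falls without 1 array were 0 to 1 for SA against OA and for SA against LPS. For SA against vehicle they were 0 to 1, and 1 with trend, quantile normalisation, weights or the replicate block. For LPS against vehicle, falls were 30 with trend, 6 with centring, 38 with quantile normalisation and 7 to 27 without 1 array. Rises were 0 to 1 without 1 array. With every probe set on its own, 28 probe sets fell, 6 of them of Atp5l. That is a count of probe sets and not of genes. For SA against LPS, rises were 3 with centring, 30 with quantile normalisation, 4 with the groups alone and 4 to 13 without 1 array. Between 5 h and 20 h, falls with SA were 21 with trend, 8 with weights, 3 with the groups alone and 6 to 15 without 1 array; with OA they were 6 with trend, 1 with the groups alone, subunits only or the replicate block and 0 to 3 without 1 array. The cause was not tested. The median of the interaction, -0.07, was 0.02 without replicate 2 of 20 h SA.

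Same-numbered arrays correlated at a median of 0.017 (-0.124 to 0.201, 55 pairs), against -0.003 (-0.221 to 0.255) for other pairs. No pairing by number was seen, which does not show that same-numbered samples shared no batch or animal. Apart from the counts above, the block moved no count by over 1.5 times.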
